A study of Mus musculus and Rattus norvegicus with 14 samples.

Results

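A set of 37 macrophage genes was followed through 12 mouse heart libraries and 2 libraries of rat heart cell cultures. The members were taken by gene name from a list of macrophage identity genes. All 37 were among the 54532 genes of the mouse table and all 37 passed the filter on low values described below. In the rat table of 33600 genes, 32 of the names were found, and Fcgr1, Fcgr3, Timd4, Cbr2 and Ms4a6c were not matched by name.

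The heart holds macrophages that settled before birth and renew themselves locally, and it receives further macrophages from blood monocytes after injury. In mouse hearts the self-renewing cells are known for Timd4, Lyve1, Folr2, Cbr2, Cd163, Mrc1, F13a1, Vsig4 and Siglec1, called resident-associated genes here. Cells recently derived from monocytes are known for Cd14, the lectins Clec4n and Clec7a, the scavenger receptor Msr1, the MS4A proteins Ms4a6c and Ms4a7, and the oxidase subunit Cybb, called recruited-associated genes here. No gene is exclusive to either kind of cell. Lyve1 is also a gene of lymphatic endothelium, and fibroblasts also express Axl and Gas6.

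Messenger RNA was sequenced from hearts labelled LQ-40, SQ-3, Model and Sham, with 3 libraries in each group. Both LQ-40 and SQ-3 are compounds known here only by code, whose effect on fibrosis of the heart the study set out to assess; the series text speaks of structural similarity, and no structure is given here. The labels used here give no dose, duration, procedure, strain, sex or age, do not state what the Model hearts underwent, and do not say whether hearts of the LQ-40 and SQ-3 groups underwent it too. Nor do they tell whether each library is a different animal. The p-values therefore describe the spread among the sequenced samples alone, and that spread may be technical. In the rat, a 3D co-culture (named 3D-OGD-MF in the series text) and 2D cells combined 1:1:1 each gave 1 library. Both were made of macrophages derived from bone marrow, primary cardiomyocytes and fibroblasts of the heart.

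The mouse libraries held 13085370 to 16698987 reads in genes, and a member had between 0 and 21682 reads in a library. Levels are scaled FPKM, reads per kilobase of gene and sequencing depth after a further scaling between libraries, so that genes can be compared with each other. Cardiac muscle genes (Myh6, Tnnt2, Tnni3, Actc1, Ryr2 and Myl2) summed to 6373 to 17151 scaled FPKM, so the labelled tissue carried its defining genes. In bulk tissue, fewer cells of a type and less RNA per cell cannot be told apart. Summed over the 37 members, library 3 of the LQ-40 group held the highest level (2501 scaled FPKM) and library 2 of the Sham group the lowest (701). LQ-40 library 3 was the highest of the 12 libraries for 20 of the 37 members, and Sham library 2 was the lowest for 19.

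The promoters of the members are shown first because many macrophage genes are switched on by PU.1, the transcription factor encoded by the member Spi1. RefSeq start-site windows (GRCm38, 300 bases around the start, most of them before it) were found for 27 of the 37 members, in 33 windows. The core AGGAAGT, or its reverse complement ACTTCCT, stood in 11 of the 33 windows (33.3%) and in 9.35% of 32817 windows of all genes. It was found for C1qb, C1qc, Ctss, F13a1, Fcgr1, Folr2, Lyz2, Mrc1, Ms4a6c and Ptprc. Other proteins of the ETS family read the same core, and a match is a description of letters, not a binding site. The windows of 4 members are printed 5′ to 3′ on the strand of the gene, for the members that rose (Lyz2, Mrc1 and C1qb) or fell (Fcgr1) in Model hearts. Capitals mark the match, which lies 100 bases upstream of the start in Lyz2 (chr10:117282223-117282522, minus strand), 211 in Mrc1 (chr2:14229164-14229463, plus strand), 53 in C1qb (chr4:136886151-136886450, minus strand) and 61 in Fcgr1 (chr3:96293920-96294219, minus strand).
Lyz2: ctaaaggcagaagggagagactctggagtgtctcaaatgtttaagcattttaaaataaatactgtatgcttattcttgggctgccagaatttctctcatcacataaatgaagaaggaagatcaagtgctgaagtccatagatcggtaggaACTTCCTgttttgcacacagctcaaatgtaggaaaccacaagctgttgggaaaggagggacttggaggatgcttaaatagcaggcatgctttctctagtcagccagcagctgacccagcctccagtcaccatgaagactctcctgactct
Mrc1: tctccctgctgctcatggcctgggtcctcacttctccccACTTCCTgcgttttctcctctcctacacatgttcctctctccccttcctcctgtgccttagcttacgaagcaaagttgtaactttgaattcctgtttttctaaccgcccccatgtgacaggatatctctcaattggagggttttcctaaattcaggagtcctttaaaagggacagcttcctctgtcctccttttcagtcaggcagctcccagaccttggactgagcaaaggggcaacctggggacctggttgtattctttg
C1qb: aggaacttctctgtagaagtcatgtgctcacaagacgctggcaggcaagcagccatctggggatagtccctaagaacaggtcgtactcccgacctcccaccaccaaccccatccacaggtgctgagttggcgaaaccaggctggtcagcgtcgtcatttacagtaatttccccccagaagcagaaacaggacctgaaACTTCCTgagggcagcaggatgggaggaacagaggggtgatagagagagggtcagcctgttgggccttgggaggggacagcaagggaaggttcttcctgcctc
Fcgr1: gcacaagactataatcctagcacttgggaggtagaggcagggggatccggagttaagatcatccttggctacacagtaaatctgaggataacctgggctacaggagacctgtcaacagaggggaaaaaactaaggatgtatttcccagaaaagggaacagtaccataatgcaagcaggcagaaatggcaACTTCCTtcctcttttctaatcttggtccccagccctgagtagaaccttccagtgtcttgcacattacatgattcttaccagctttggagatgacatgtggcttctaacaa
An interferon-stimulated response element, read as 2 copies of GAAA with 2 bases between them on either strand, stood in windows of 3 members (Aif1, Ctss and Cybb), which is 9.09% of the member windows against 3.43% of all windows.

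Many macrophage genes stood higher in Model than in Sham hearts, among them lysozyme, Fc receptors, Cd14 and the genes for clearing dying cells. Of the 9 resident-associated genes 1 rose and 1 fell. Of the 37 members, 17 rose and 2 fell in Model hearts, with 18 not passing the test (limma on all 13000 tested genes, Benjamini-Hochberg adjusted p under 0.05). Among all tested genes 38.9% were called in this comparison, 20.9% higher and 18% lower. The largest rises were in Ms4a7 (3.77-fold), Cd14 (3.44-fold), Fcgr3 (2.94-fold) and Fcgr2b (2.87-fold), and the genes that fell were Siglec1 (2.60-fold lower) and Fcgr1 (1.72-fold lower). The median log2 change was 0.72 over the members and 0.03 over all tested genes, and the change was above 0 for 29 of the 37 members and for 52.2% of all genes. For 24 members no Model library overlapped the Sham range, against 55.5% of all genes. Folds come from log2 values of scaled FPKM + 1 and so are too small for genes of low level.

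**Figure D1:**
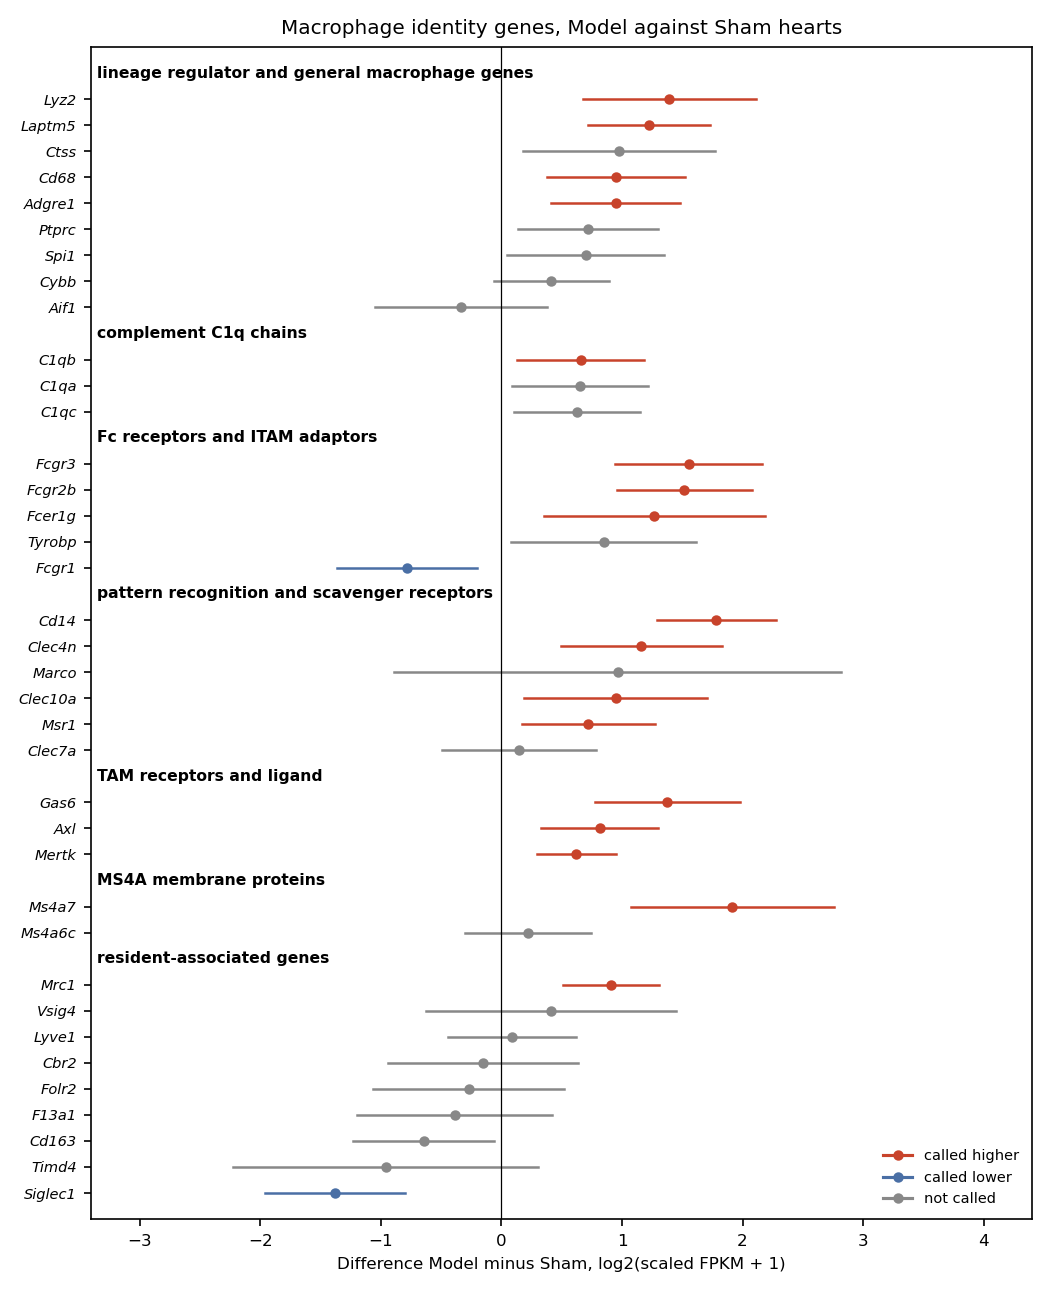
Difference between Model and Sham hearts on the log2(scaled FPKM + 1) scale for each of the 37 genes, grouped by role, with points for the estimates and lines for 95% intervals (limma, 3 libraries a group). Members called higher lie right of 0, from 0.62 for Mertk to 1.91 for Ms4a7, and most resident-associated genes lie at or left of 0.

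Among genes that mark the macrophage lineage as a whole, 4 of 9 rose and none fell. Lyz2, which encodes the secreted antibacterial lysozyme (chromosome 10, 117277331 to 117282321, mm10), had the highest level of all members. It stood at 656, 729.9 and 435 scaled FPKM in Model libraries, against 297, 180.4 and 213 in Sham libraries. Every Model library lay above every Sham library (log2 change 1.39, SE 0.32, limma adjusted p = 0.00805). Reads of Lyz2 may be shared with its close copy Lyz1, which was not resolved here. Laptm5, a lysosomal membrane protein of blood-derived cells (chromosome 4, 130913125 to 130936141), had 33.1, 23.7 and 22.5 scaled FPKM in Model libraries, against 9.36, 9.66 and 13 in Sham libraries. The groups were apart by more than their own spread (log2 change 1.22, SE 0.23, limma adjusted p = 0.00327). Adgre1, the surface receptor known as F4/80 (chromosome 17, 57358691 to 57483527), was even among Model libraries at 21.2, 19.5 and 19.1 scaled FPKM, against 9.98, 7.59 and 12.6 in Sham libraries (log2 change 0.95, limma adjusted p = 0.0119). Cd68, a lysosomal glycoprotein (chromosome 11, 69664213 to 69666153), had 26.6, 26.4 and 18.5 scaled FPKM in Model libraries, against 11.6, 8.51 and 16.1 in Sham libraries. Its rise (log2 0.95, limma adjusted p = 0.0156) was lost without Model library 1 (0.0583) or without Sham library 2 (0.0601).

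The other 5 lineage genes did not pass. Spi1 itself had a mean of 6.55 ± 1.78 scaled FPKM in the Model group and 3.66 ± 1.18 in the Sham group (± is the SD of 3 libraries here and below; limma adjusted p = 0.083). Ptprc, the pan-leukocyte phosphatase CD45, had a mean of 2.68 ± 0.72 in the Model group and 1.22 ± 0.30 in the Sham group (limma adjusted p = 0.0515), and the protease gene Ctss had a mean of 76.9 ± 15.1 in the Model group and 38.9 ± 9.98 in the Sham group (limma adjusted p = 0.0526). For Ptprc and Ctss the Model libraries lay above all Sham libraries although the test was missed. Both genes passed with limma-voom (Ptprc 0.0339, Ctss 0.0428) and with the 2 groups alone (Ptprc 0.0149, Ctss 0.00978). Aif1, which encodes the actin-binding protein IBA1, had a lower Model mean, with 3.69 ± 1.00 in Model against 4.85 ± 0.60 in Sham libraries (limma adjusted p = 0.432), and its groups overlapped.

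The C1q chains form the recognition unit of the classical complement pathway and are made by tissue macrophages. Their 3 genes lie side by side on chromosome 4 and had nearly the same difference, with log2 values of 0.66 for C1qb, 0.65 for C1qa and 0.63 for C1qc. The mean of C1qb was 117 ± 19.3 scaled FPKM in the Model group and 73.7 ± 11.4 in the Sham group (SD, 3 libraries each). C1qa stood at 158 ± 16.3 in Model and 102 ± 23.5 in Sham, and C1qc at 64.3 ± 10.5 in Model and 41.5 ± 9.10 in Sham. C1qb alone passed the threshold (limma adjusted p = 0.0485), while C1qc (0.0547) and C1qa (0.0632) missed it narrowly. The C1qb call was lost without Model library 1, without Model library 2 or without any single Sham library (adjusted p from 0.0675 to 0.153), and also with FPKM as deposited (0.059), no filter (0.0969) and a replicate block (0.0711). C1qc passed under 5 of 14 alternatives, among them limma-voom (0.0445) and leaving out Model library 3 (0.0499), and C1qa under quantile normalization (0.0227) and with the 2 groups alone (0.0321).

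Receptors for the constant part of immunoglobulin G differed in direction. Fcgr2b, the inhibitory receptor (chromosome 1, 170958617 to 170976547), had 5.97, 6.82 and 4.28 scaled FPKM in Model libraries, against 1.68, 0.757 and 1.60 in Sham libraries. Fcgr3, a low-affinity activating receptor (chromosome 1, 171051174 to 171064935), had 13.8, 19.3 and 10.5 in Model libraries, against 4.58, 2.74 and 5.51 in Sham libraries. For both receptors the Model libraries lay well above the Sham libraries (log2 change 1.52, limma adjusted p = 0.00197 for Fcgr2b, and 1.55, limma adjusted p = 0.00257 for Fcgr3). Fcgr1, the high-affinity receptor (chromosome 3, 96282909 to 96293969), was lower in every Model library, at 2.87, 2.07 and 1.27 scaled FPKM, against 3.25, 4.19 and 5.24 in Sham libraries. Its fall (log2 -0.78, SE 0.26, limma adjusted p = 0.0364) was lost without Model library 2 or 3 and without Sham library 2 or 3 (adjusted p from 0.0717 to 0.130), and with no filter (0.0878) and a replicate block (0.0574). Fcer1g, the signalling chain that these activating receptors share, had a mean of 17.0 ± 7.57 in the Model group and 6.05 ± 1.00 in the Sham group (limma adjusted p = 0.0332). That call was lost without Model library 1, without Model library 2 or without any Sham library (adjusted p from 0.0517 to 0.115), and with no filter (0.0799) and limma-voom (0.0546). Tyrobp, the related adaptor DAP12, had a mean of 39.4 ± 9.49 in the Model group and 21.4 ± 5.20 in the Sham group and did not pass (limma adjusted p = 0.0742). The Fc receptor genes are similar in sequence, and the sources used here do not give how reads matching several of them were counted.

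Interferon response genes fell beside Siglec1 and Fcgr1, which are both known to be induced by interferon. All 10 genes of a list of interferon-stimulated genes fell in Model hearts, with a median log2 change of -3.4. Their summed level was 22.8 to 57.2 scaled FPKM in Model libraries and 428 to 587 in Sham libraries. The part of this difference in the changes of Siglec1 and Fcgr1 was not tested.

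Among pattern recognition and scavenger receptors, 4 of 6 rose. Cd14, the co-receptor for bacterial lipopolysaccharide (chromosome 18, 36725074 to 36726736), had the smallest adjusted p of the members. It stood at 42.3, 35.5 and 42.8 scaled FPKM in Model libraries, against 10.7, 10.8 and 11.3 in Sham libraries (log2 change 1.78, SE 0.22, limma adjusted p = 0.000512). Both groups were tight and far apart. Clec4n, the lectin dectin-2 that binds fungal mannans (chromosome 6, 123229843 to 123247021), had 6.30, 8.76 and 7.42 in Model libraries, against 2.63, 1.73 and 4.42 in Sham libraries (log2 change 1.16, limma adjusted p = 0.0126). Msr1, the class A scavenger receptor, had 2.74, 4.48 and 2.36 in Model libraries, against 1.12, 1.72 and 1.67 in Sham libraries (log2 change 0.72, limma adjusted p = 0.042). The groups of both genes were apart, but the Msr1 call was lost without Model library 1, without Model library 2 or without any Sham library (adjusted p from 0.0656 to 0.147), and with quantile normalization (0.0795) and no filter (0.0986). Clec10a, a galactose-type lectin, rested on 1 library, with 1.58, 7.73 and 2.59 in Model libraries, against 1.80, 0.820 and 1.22 in Sham libraries. Its groups overlapped, its limma adjusted p was 0.0493, and without Model library 2 the log2 change of 0.95 became 0.44 with an adjusted p of 0.0924. The call was also lost without Model library 3, without any Sham library (adjusted p from 0.0592 to 0.145), with FPKM as deposited (0.0546), quantile normalization (0.0847), no filter (0.114), the 2 groups alone (0.118), limma-voom (0.0832) and a replicate block (0.0691). It held under 2 of 13 alternatives. Clec7a, the beta-glucan receptor dectin-1, did not pass, with 2.93, 2.82 and 1.38 in Model libraries and 2.27, 1.35 and 2.41 in Sham libraries (limma adjusted p = 0.715).

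All 3 genes of the TAM system rose, the receptors with which macrophages clear dying cells and the ligand that bridges them to exposed phosphatidylserine. Gas6, the ligand (chromosome 8, 13465374 to 13494490), had 212, 202 and 168 scaled FPKM in Model libraries, against 71.7, 75.5 and 73.9 in Sham libraries. The 2 groups were each narrow and did not overlap (log2 change 1.38, SE 0.27, limma adjusted p = 0.00403). Mertk, the receptor for clearance in resting tissue (chromosome 2, 128698956 to 128802894), had 5.01, 5.66 and 5.27 in Model libraries, against 3.45, 3.00 and 2.88 in Sham libraries. Its change was small but even (log2 0.62, SE 0.15, limma adjusted p = 0.00916). Axl, the related receptor, had a mean of 78.3 ± 11.1 in the Model group and 44.0 ± 5.17 in the Sham group (log2 change 0.81, limma adjusted p = 0.0145), and that call was lost without Model library 1, without Model library 3 or without Sham library 1 (adjusted p from 0.0511 to 0.0536). Of the other TAM genes, the ligand Pros1 (log2 change 0.87, limma adjusted p = 0.00447) and the receptor Tyro3 (0.83, limma adjusted p = 0.00702) rose, and Mfge8, another bridge to dying cells, had a mean of 40.5 ± 5.31 in the Model group and 31.9 ± 4.73 in the Sham group without passing (limma adjusted p = 0.089). Fibroblast genes rose in the same hearts, 5 of 6 on their list, with summed levels of 2395 to 2873 scaled FPKM in Model and 886 to 1027 in Sham libraries. Col1a1, the chain of type I collagen that serves as a measure of fibrosis, stood at 877 ± 126 in Model and 79.3 ± 42.2 in Sham libraries (log2 change 3.63, limma adjusted p = 0.00142). The part of fibroblasts in the rise of Gas6 and Axl was not tested.

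Of the pair of MS4A genes, whose products sit in the membrane of myeloid cells, 1 rose. Ms4a7 (chromosome 19, 11321039 to 11336146) had 8.2, 5.45 and 4.88 scaled FPKM in Model libraries, against 1.07, 0.667 and 0.898 in Sham libraries. No Sham library came near the Model group (log2 change 1.91, SE 0.38, limma adjusted p = 0.00423). Ms4a6c had 8.53, 8.23 and 7.34 in Model libraries and 9.08, 5.29 and 6.31 in Sham libraries, and the groups overlapped (limma adjusted p = 0.479).

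Of the 9 resident-associated genes, 1 rose (Mrc1), 1 fell (Siglec1) and 7 did not pass. The median log2 change was -0.27, and whether it differed from that of the other members was not tested. Mrc1, the mannose receptor (chromosome 2, 14229392 to 14332057), had 21.7, 29.0 and 21.1 scaled FPKM in Model libraries, against 11.7, 11.9 and 12.9 in Sham libraries (log2 change 0.91, SE 0.18, limma adjusted p = 0.00414). Siglec1, the sialic acid receptor sialoadhesin (chromosome 2, 131069220 to 131086765), had 2.39, 4.88 and 1.59 in Model libraries, against 6.97, 9.17 and 10.3 in Sham libraries (log2 change -1.38, SE 0.26, limma adjusted p = 0.00359). The groups of both genes were fully apart, in opposite directions.

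Model library 2 stood out among the resident-associated genes that did not pass. Cd163, the receptor for haptoglobin-bound haemoglobin, had 2.95, 6.36 and 3.22 scaled FPKM in Model libraries and 10.4, 4.68 and 6.25 in Sham libraries (limma adjusted p = 0.0751). F13a1, the A chain of clotting factor XIII, had 9.03, 24.9 and 8.47 in Model libraries and 16.2, 17.2 and 16.6 in Sham libraries (limma adjusted p = 0.423). In both genes, Model libraries 1 and 3 lay below every Sham library and Model library 2 did not. Without Model library 2 both were called lower, Cd163 by log2 -0.93 (limma adjusted p = 0.0175) and F13a1 by -0.86 (limma adjusted p = 0.0363), and Cd163 was also called lower without Sham library 2 (log2 -0.87, limma adjusted p = 0.0362). Timd4, a phosphatidylserine receptor of long-lived macrophages, had 1.04, 3.29 and 0.377 in Model libraries and 2.97, 2.84 and 4.83 in Sham libraries (limma adjusted p = 0.205). Vsig4, a complement receptor, had 1.49, 5.91 and 0.553 in Model libraries and 0.840, 1.55 and 1.43 in Sham libraries (limma adjusted p = 0.513). Folr2, a folate receptor, had 1.73, 3.64 and 1.55 in Model libraries and 5.14, 1.06 and 3.5 in Sham libraries (limma adjusted p = 0.576). In each of these 3 genes Model library 2 was the highest of its group, and the groups overlapped. Lyve1, the hyaluronan receptor, had 10.8, 21.8 and 16.3 in Model libraries and 17.4, 13.1 and 13.9 in Sham libraries (limma adjusted p = 0.793). Cbr2, a carbonyl reductase, had 34.8, 52.5 and 46.9 in Model libraries and 69.4, 41.2 and 41.2 in Sham libraries (limma adjusted p = 0.763). Lyve1 and Cbr2 showed no shift larger than the spread between replicates. Of the 6 lymphatic endothelial genes, 4 rose and Prox1 fell, with summed levels of 38 to 130.1 scaled FPKM in Model and 22.7 to 28.0 in Sham libraries, and the part of lymphatic vessels in the Lyve1 values was not tested.

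**Figure D2:**
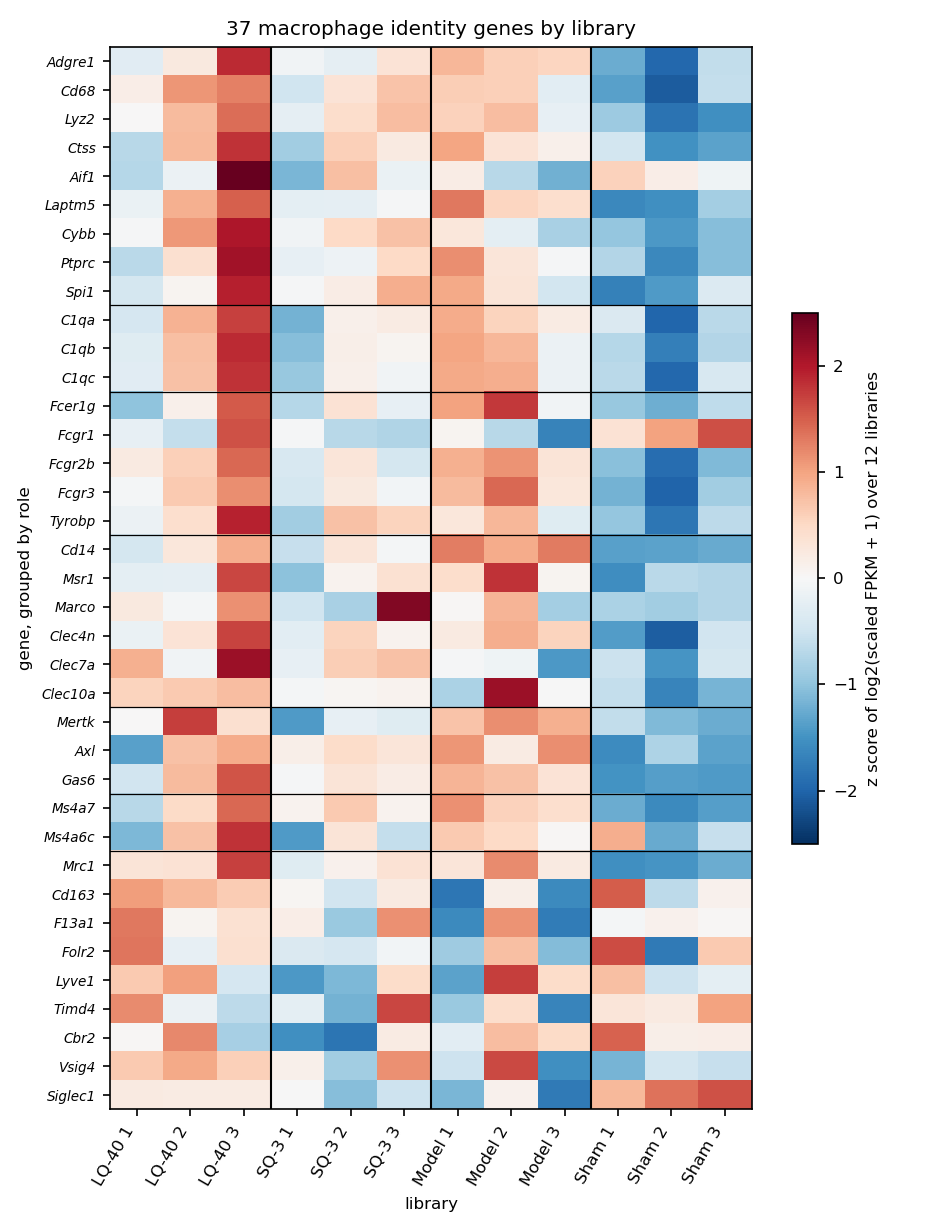
Each row is a gene and each column a library, grouped as LQ-40, SQ-3, Model and Sham, with colour giving the z score of log2(scaled FPKM + 1) over the 12 libraries. Of the 37 members, 20 are highest in LQ-40 library 3 and 19 are lowest in Sham library 2. The resident-associated rows at the bottom vary from library to library. Siglec1, and Fcgr1 among the Fc receptors, average highest in Sham.

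Of 7 recruited-associated genes, 4 rose (Cd14, Ms4a7, Clec4n and Msr1) and none fell in Model against Sham hearts, and all 7 log2 changes were above 0, with a median of 0.72. Cybb, the catalytic subunit of the phagocyte oxidase, did not pass, with 11.0, 9.14 and 7.48 scaled FPKM in Model libraries against 7.07, 5.92 and 6.80 in Sham libraries (limma adjusted p = 0.146). Within each library the median log2 level of the 9 resident-associated genes was set against that of the 7 recruited-associated genes. This difference was 0.67, 0.24 and -0.51 in LQ-40 libraries, 0.26, -0.49 and 0.28 in SQ-3 libraries, -1.22, -0.33 and -0.98 in Model libraries, and 1.64, 1.90 and 1.05 in Sham libraries. With these medians it was below 0 in all Model libraries and above 1 in all Sham libraries, and the LQ-40 and SQ-3 libraries lay on either side of 0 between them, apart from an overlap of LQ-40 library 3 and SQ-3 library 2 with the Model range. The group values were 0.13 ± 0.60 in LQ-40, 0.02 ± 0.44 in SQ-3, -0.84 ± 0.46 in Model and 1.53 ± 0.43 in Sham hearts (± SD over 3 libraries). Signs and sizes depended on how the lists were summarised. With means in place of medians the Model value was -0.12 and the Sham value 1.06, and Model library 2 stood above 0 (0.44). Without Siglec1 alone, the Model value was -0.15 and the Sham value 1.42. Model library 2 was again above 0 (0.49), and Sham library 3 stood at 0.89. No test was made of this difference, because the lists were drawn up with results of these hearts known.

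**Figure D3:**
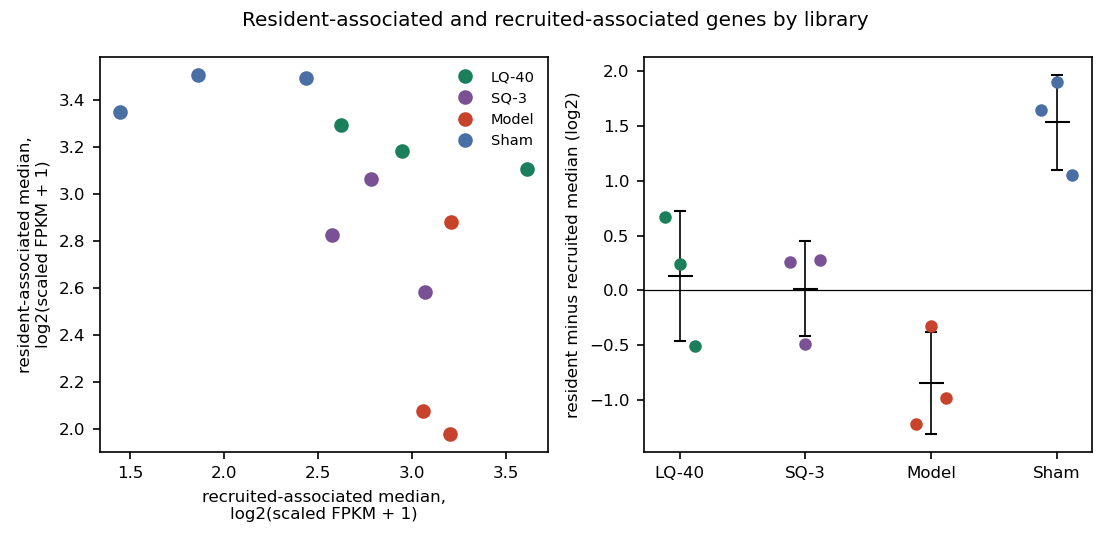
Left, the median log2(scaled FPKM + 1) of 9 resident-associated genes against that of 7 recruited-associated genes, with 1 point per library; right, their difference by group with mean and SD (3 libraries each). The Sham libraries lie between 1.05 and 1.90 and the Model libraries between -1.22 and -0.33.

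Genes of the macrophage growth factor axis, transcription factor genes and monocyte genes, none of them members, were read beside the members. Csf1r, the receptor for the macrophage growth factor, had a mean of 33.1 ± 4.74 scaled FPKM in the Model group and 15.6 ± 1.14 in the Sham group (log2 change 1.03, limma adjusted p = 0.00126). The ligand Csf1 had a mean of 15.2 ± 1.62 in the Model group and 15.3 ± 1.80 in the Sham group (limma adjusted p = 0.947). The transcription factor genes Cebpa, Runx1, Zeb2 and Cebpb were also called higher. Of 8 monocyte genes outside the members, 6 could be tested and 3 rose, namely Vcan (log2 change 2.13, limma adjusted p = 0.0039), Hp (2.57, limma adjusted p = 0.0352) and Itgam (0.62, limma adjusted p = 0.0411). The chemokine receptor Ccr2, which guides monocytes out of the marrow, had a mean of 2.98 ± 1.64 in the Model group and 0.96 ± 0.45 in the Sham group and did not pass (limma adjusted p = 0.0676). The remaining tested genes of this list, Ly6c2 and Plac8, had lower Model means and did not pass. Ly6c2 had 0.52 ± 0.33 in Model and 1.02 ± 0.42 in Sham (log2 change -0.41, limma adjusted p = 0.163). Plac8 had 3.27 ± 3.12 in Model and 4.68 ± 1.54 in Sham (log2 change -0.66, limma adjusted p = 0.335). In the rat libraries described below, Runx1 had 96.1 scaled FPKM in 3D and 68.2 in 2D. Cebpb had 185 in 3D and 112 in 2D, and Zeb2 had 25.7 in 3D and 12.9 in 2D. Vcan had 35.7 in 3D and 25.7 in 2D. Csf1r was lower, with 2.43 in 3D and 3.84 in 2D, and so was Cebpa, with 1.92 in 3D and 3.07 in 2D. Fibroblast genes summed to 2624 in 3D and 2486 in 2D. The part of fibroblasts in the Model rises of Runx1, Zeb2, Cebpb and Vcan was not tested.

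Other cell types also differed between these groups. Cardiac muscle genes fell (5 of 6), with summed levels of 7892 to 9441 scaled FPKM in Model and 15599 to 17151 in Sham libraries. Of 4 tested neutrophil genes limma called 0, with 1 at an unadjusted p under 0.05, and their list summed to 6.96 to 14.1 in Model and 8.11 to 22.1 in Sham libraries. Dendritic cell genes gave 2 rises (Cd209a and Itgax) and 1 fall (Clec9a) among 4 tested, and their list summed to 6.59 to 9.68 in Model and 5.49 to 6.2 in Sham libraries. Of 9 lymphocyte genes only Cd79a could be tested, and it was not called, at an unadjusted p above 0.05. Mitochondrial genes took 10.8% to 15.3% of reads in Model and 14.6% to 23.6% in Sham libraries. The part of these shifts in the macrophage values was not tested.

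Over the 12 libraries, the genes outside the set most like the mean z score of the members were Pirb (Pearson r = 0.97), Dram1, Itgam, Cd53, Plxnc1, Cyba, Naaa, Ccl8, Plek and Dock2 (r = 0.94). These are descriptions over libraries that share their groups and their scaling.

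LQ-40 and SQ-3 hearts were next set against the Model hearts, to ask how each compound group stood. None of the 37 members was called in LQ-40 against Model hearts, where 0.669% of all genes were called (0.185% higher, 0.485% lower), and none in SQ-3 against Model hearts, where 0.346% were called (0.0769% higher, 0.269% lower) (limma; limma-voom on recovered reads also gave 0 in each). At an unadjusted p under 0.05 there were 5 members in each comparison. The share of all genes at that level is not given, here or for the later counts of this kind, so whether these counts exceed it cannot be told. Log2 changes were above 0 for 25 of 37 members in LQ-40 (median 0.09; 51.1% of all genes) and for 12 of 37 in SQ-3 (median -0.25; 48.3% of all genes). The LQ-40 split moved both ways with single libraries. It was 16 of 37 (median -0.11) without LQ-40 library 3 and 17 of 37 (median -0.01) without Model library 3, but 32 of 37 (median 0.29) without LQ-40 library 1 and 30 of 37 (median 0.14) without Model library 2. The SQ-3 count was 6 of 37 without Model library 3. Libraries did not overlap for 3 members in LQ-40 against Model (18.1% of all genes) and for 8 in SQ-3 against Model (26.4% of all genes). The comparisons share the Model libraries, so their values are given side by side and not as independent results.

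Cd14 was low in both compound groups relative to Model. It had 17.4, 25.5 and 35.1 scaled FPKM in LQ-40 libraries and 16.3, 25.6 and 21.3 in SQ-3 libraries, against 42.3, 35.5 and 42.8 in Model libraries. All 6 compound libraries lay below the lowest Model library, by a small margin for LQ-40 library 3. The log2 differences were -0.66 in LQ-40 (95% interval -1.15 to -0.17, limma adjusted p = 0.259) and -0.92 in SQ-3 (-1.41 to -0.43, limma adjusted p = 0.146). Neither passed the threshold. In SQ-3 hearts Mertk averaged 3.46 ± 0.65, against 5.32 ± 0.33 in Model hearts (log2 difference -0.51, 95% interval -0.84 to -0.18, limma adjusted p = 0.208), and Fcgr2b, Fcgr3 and Laptm5 were the other members with unadjusted p under 0.05, all with lower means than Model.

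The resident-associated genes Cd163 and Siglec1 stood higher in LQ-40 than in Model libraries. Cd163 had 8.79, 8.07 and 7.60 scaled FPKM in LQ-40 libraries, against 2.95, 6.36 and 3.22 in Model libraries (log2 difference 0.88, 95% interval 0.30 to 1.46, limma adjusted p = 0.192). Siglec1 had 5.17, 5.14 and 5.13 in LQ-40 libraries, against 2.39, 4.88 and 1.59 in Model libraries (log2 difference 0.72, 95% interval 0.14 to 1.31, limma adjusted p = 0.299). For both genes every LQ-40 library lay above every Model library, and neither difference passed. All 10 interferon response genes also had log2 differences above 0 in LQ-40 against Model (median 0.72), with 5 at an unadjusted p under 0.05, 5 without overlap and 0 called by limma. Their part in the Siglec1 values was not tested. Of the 9 resident-associated genes 8 had a log2 difference above 0 in LQ-40 (median 0.59), and 6 of 9 in SQ-3 (median 0.18). Of the 7 recruited-associated genes 4 were above 0 in LQ-40 (median 0.02), and 2 of 7 in SQ-3 (median -0.30). The remaining resident-associated genes overlapped between the compound groups and Model. Lyve1 had 17.1, 18.6 and 13.4 scaled FPKM in LQ-40 libraries and 10.5, 11.3 and 16.3 in SQ-3 libraries. Cbr2 had 39.2, 62.4 and 27.6 in LQ-40 libraries and 20.8, 18.5 and 42 in SQ-3 libraries. F13a1 had 26.7, 17 and 19 in LQ-40 libraries and 17.5, 11.6 and 25.1 in SQ-3 libraries. Within SQ-3, library 3 was the highest for all 3 of these genes. Folr2 had 4.59, 2.40 and 3.14 in LQ-40 libraries and 2.23, 2.18 and 2.55 in SQ-3 libraries. Vsig4 had 3.33, 3.95 and 3.23 in LQ-40 libraries and 2.37, 1.12 and 4.46 in SQ-3 libraries. Among recruited-associated genes, Clec7a had 4.45, 2.84 and 7.52 in LQ-40 libraries and 2.68, 3.94 and 4.15 in SQ-3 libraries, and its log2 difference of LQ-40 from Model was 0.77 (95% interval 0.13 to 1.41, limma adjusted p = 0.308). The LQ-40 and Model ranges of Clec7a overlapped. Msr1 had 2.07, 2.10 and 4.30 in LQ-40 libraries and 1.46, 2.38 and 2.67 in SQ-3 libraries. Ms4a6c had 5.5, 8.70 and 11.2 in LQ-40 libraries and 5.08, 7.88 and 6.27 in SQ-3 libraries, all reaching into the Model range or below it except the highest LQ-40 values. Outside the members, the transcription factor Cebpb fell in SQ-3 hearts to 15.0 ± 3.01 scaled FPKM, against 32.2 ± 5.17 in Model hearts (log2 difference -1.06, limma adjusted p = 0.0305).

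LQ-40 and SQ-3 were also compared with each other directly. Limma called no member and no other tested gene (0.0% of 13000 genes), with 3 members at an unadjusted p under 0.05, and limma-voom also gave 0 members. LQ-40 was nominally higher for 36 of 37 members, with a median log2 difference of 0.34, where 50.7% of all genes were above 0. Leaving out LQ-40 library 3 brought this to 25 of 37 and a median of 0.12. Leaving out LQ-40 library 1 gave 36 of 37 and a median of 0.54, with 15 members at an unadjusted p under 0.05 and still 0 called. The interval of the difference reached from -0.23 to 0.75 on the log2 scale for Cd14, from -0.12 to 1.05 for Siglec1 and from -0.16 to 1.00 for Cd163. For Mertk it reached from 0.11 to 0.77 (unadjusted p below the threshold, limma adjusted p = 1). Libraries did not overlap for 4 members (Cd163, Clec10a, Mertk and Siglec1), against 6.12% of all genes. The interval of Fcgr2b reached from 0.10 to 1.22, and that of Marco, the widest, from -1.72 to 1.99. A difference of 2-fold thus lies within or at the edge of many of these intervals, so they do not show that the compounds act alike.

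Against Sham hearts, 13 members rose in LQ-40 and none fell, where 9.83% of all genes were called higher, 5.93% lower and 15.8% in both directions. Log2 differences were above 0 for 33 members (52.1% of all genes), and libraries did not overlap for 23 (33.2% of all genes). The called members were Fcgr2b, Mrc1, Laptm5, Lyz2, Cd14, Gas6, Fcgr3, Cd68, Cybb, Ms4a7, Clec4n, Adgre1 and Mertk. Lyz2 had 485, 735 and 1024 scaled FPKM in LQ-40 libraries, against 297, 180.4 and 213 in Sham libraries (log2 difference 1.66, SE 0.32, limma adjusted p = 0.0126). Fcgr2b had 4.0, 5.0 and 8.18 in LQ-40 libraries, against 1.68, 0.757 and 1.60 in Sham libraries (log2 difference 1.5, limma adjusted p = 0.00749). Mrc1 had 21.8, 22.1 and 34.5 in LQ-40 libraries, against 11.7, 11.9 and 12.9 in Sham libraries (log2 difference 1.01, limma adjusted p = 0.00874). In all 3 genes the groups did not overlap, and LQ-40 library 3 was the highest. Cybb, which had not passed in Model hearts, had 9.82, 14.5 and 19.9 in LQ-40 libraries, against 7.07, 5.92 and 6.80 in Sham libraries (log2 difference 1.00, limma adjusted p = 0.017). The difference between LQ-40 and Model for Cybb did not pass (log2 0.59, limma adjusted p = 0.299).

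The other 9 called members were also highest in LQ-40 library 3, apart from Mertk. Laptm5 had 17.6, 27.4 and 35.4 scaled FPKM in LQ-40 libraries, against 9.36, 9.66 and 13 in Sham libraries (log2 difference 1.21, limma adjusted p = 0.0113). Gas6 had 115, 206 and 298 in LQ-40 libraries, against 71.7, 75.5 and 73.9 in Sham libraries (log2 difference 1.37, limma adjusted p = 0.0133). Fcgr3 had 8.72, 12.7 and 16.7 in LQ-40 libraries, against 4.58, 2.74 and 5.51 in Sham libraries (log2 difference 1.37, limma adjusted p = 0.0139). In each gene LQ-40 library 1 was the lowest of its group and library 3 the highest, and all 3 lay above Sham. Cd68 had 22.1, 32.7 and 34.7 in LQ-40 libraries, against 11.6, 8.51 and 16.1 in Sham libraries (log2 difference 1.25, limma adjusted p = 0.0152). Ms4a7 had 1.92, 5.06 and 10.1 in LQ-40 libraries, against 1.07, 0.667 and 0.898 in Sham libraries (log2 difference 1.64, limma adjusted p = 0.0226). Clec4n had 5.16, 6.70 and 12.7 in LQ-40 libraries, against 2.63, 1.73 and 4.42 in Sham libraries (log2 difference 1.2, limma adjusted p = 0.0283). The fibroblast list ran in the same order, with sums of 1281, 2236 and 2594 in LQ-40 libraries 1, 2 and 3 against 886 to 1027 in Sham libraries and 5 of 6 genes called higher, and its part in the Gas6 values was not tested. LQ-40 library 1 again came nearest to Sham for these 3 genes. Cd14 (log2 difference 1.13, limma adjusted p = 0.013), Adgre1 (0.92, 0.0324) and Mertk (0.55, 0.0345) completed the list.

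The LQ-40 count depended on single libraries. It was 22 without LQ-40 library 1, 3 without LQ-40 library 2, 6 without LQ-40 library 3, 8 without Sham library 1 and 7 without Sham library 2. The share of all genes called with a library left out is not given here, so this dependence is not shown to be particular to the members. Fcgr2b was the 1 member called under every alternative. LQ-40 libraries 1 and 3 also differed from library 2 in neutrophil genes, whose list summed to 74.9 and 82.7 scaled FPKM in libraries 1 and 3 and to 6.0 in library 2, with S100a9 at 35.2, 1.93 and 48.3 in libraries 1, 2 and 3. Hp stood at 146 in LQ-40 library 3 and at 13.2 and 13.9 in the other LQ-40 libraries. The cardiac muscle list summed to 12771, 9588 and 6373 in LQ-40 libraries 1, 2 and 3, against 15599 to 17151 in Sham libraries. The part of these values in the LQ-40 calls was not tested.

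In SQ-3 hearts 4 members rose and 1 fell against Sham, where 4.86% of all genes were called higher, 1.82% lower and 6.68% in both directions. Log2 differences were above 0 for 28 members (50.8% of all genes), and libraries did not overlap for 19 (36.6% of all genes). Lyz2 had 428, 611 and 731 scaled FPKM in SQ-3 libraries, against 297, 180.4 and 213 in Sham libraries (log2 difference 1.35, limma adjusted p = 0.0356). Ms4a7 had 3.77, 5.74 and 3.77 in SQ-3 libraries, against 1.07, 0.667 and 0.898 in Sham libraries (log2 difference 1.52, limma adjusted p = 0.0413). Cd14 had a mean of 21.1 ± 4.65 in the SQ-3 group and 10.9 ± 0.34 in the Sham group (log2 difference 0.87, limma adjusted p = 0.0436). Gas6 had 141, 166 and 156 in SQ-3 libraries, against 71.7, 75.5 and 73.9 in Sham libraries (log2 difference 1.06, limma adjusted p = 0.0442). In these 4 genes every SQ-3 library lay above every Sham library. Siglec1 fell, with 4.57, 2.53 and 3.49 in SQ-3 libraries, against 6.97, 9.17 and 10.3 in Sham libraries (log2 difference -1.12, limma adjusted p = 0.0333). The 5 calls lay close to the threshold, and leaving out any 1 of the 6 libraries, from SQ-3 library 1 to Sham library 3, brought the count to 0. How many of all genes kept a call in those fits is not given here. Fibroblast genes were called higher in SQ-3 against Sham hearts for 5 of 6, with sums of 1769 to 2251 in SQ-3 and 886 to 1027 in Sham libraries, and the cardiac muscle list summed to 9840 to 12820 in SQ-3 and 15599 to 17151 in Sham libraries. Their part in the values of Gas6 was not tested. The interferon response list also fell in both compound groups against Sham (10 of 10 genes in each), with sums of 54.6 to 83.3 in LQ-40 and 39.4 to 75.2 in SQ-3 libraries, against 428 to 587 in Sham libraries. These comparisons share the Sham libraries with the comparison of Model and Sham.

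**Figure D4:**
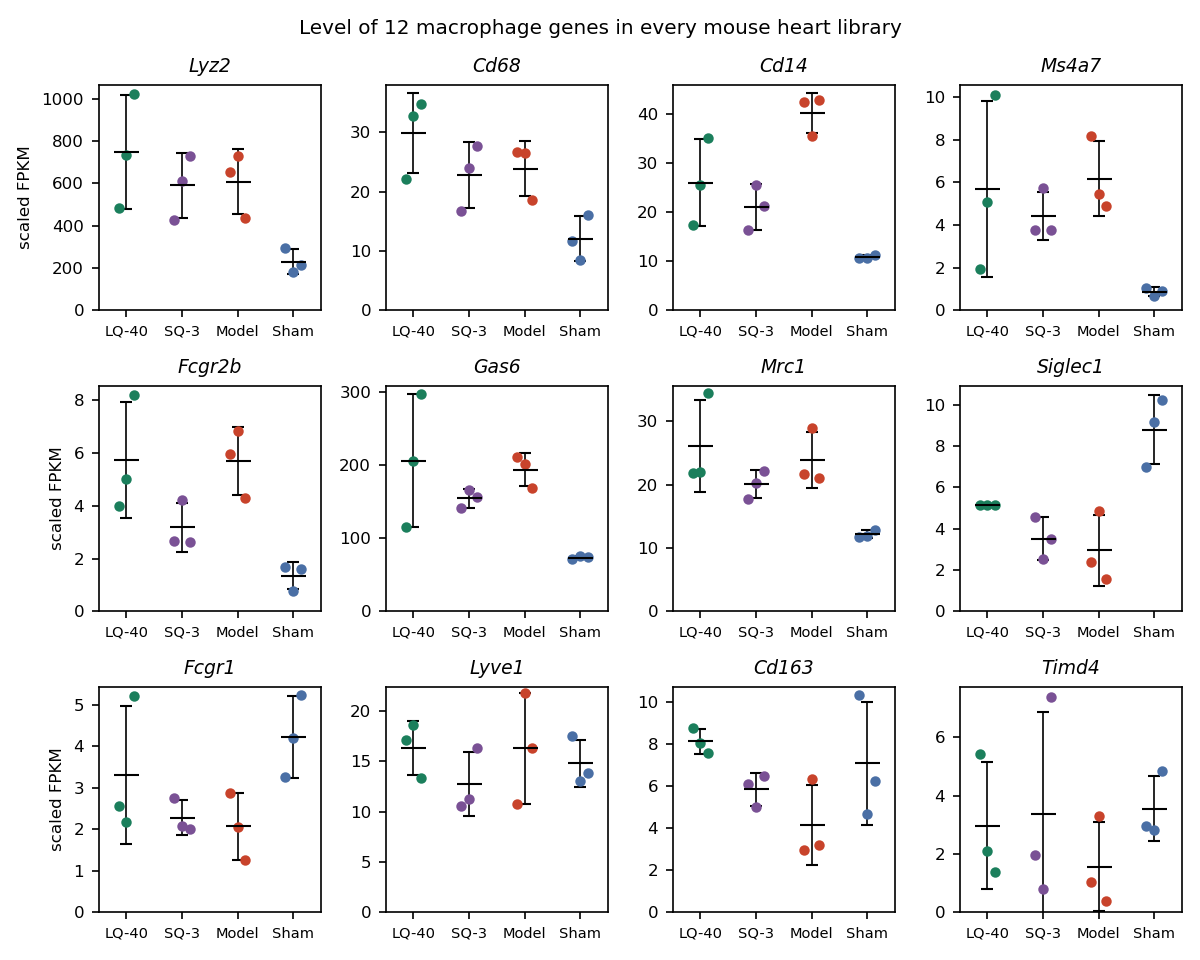
Scaled FPKM of 12 members in every mouse library (points) with mean and SD by group, LQ-40, SQ-3, Model and Sham from left to right, on linear axes that start at 0. Cd14 is highest in Model (35.5 to 42.8) and near 11 in Sham, Siglec1 and Fcgr1 average highest in Sham, and LQ-40 points spread more than those of other groups for Lyz2, Gas6 and Ms4a7.

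Marco and Timd4 varied widely within groups. Marco, a scavenger receptor for unopsonized particles, had 1.52, 0.982 and 4.2 scaled FPKM in LQ-40 libraries, 0.358, 0.0593 and 12.7 in SQ-3 libraries, 1.12, 3.13 and 0.0304 in Model libraries, and 0.0809, 0 and 0.122 in Sham libraries. The 0 in Sham library 2 allows up to 0.116 scaled FPKM (3 reads, counting error only). Timd4 had 5.44, 2.12 and 1.37 in LQ-40 libraries and 1.96, 0.788 and 7.36 in SQ-3 libraries, beside the Model and Sham values given above. SQ-3 library 3 was the highest of all 12 libraries for both genes. After subtraction of group means, Timd4 moved with F13a1 (r = 0.86), Vsig4 (0.79) and Marco (0.72) over the 12 libraries, while its r with Cd68 was 0.21. Cd68 moved with C1qc (0.90), C1qb (0.87) and Fcgr3 (0.86). These r values are descriptions, given without a test, over libraries that share depth and scaling. The B cell attractant Cxcl13 was highest in the same SQ-3 library 3 at 32.8, against 1.47 and 0.695 in the other SQ-3 libraries, and stood at 11.7 in Model library 2, against 1.36 and 0.102 in the other Model libraries. A list of mesothelial genes, which mark the outer lining of the heart, summed to 84.1 in Model library 2 against 45.1 and 15.6 in the other Model libraries. Its sum was 43.5 in SQ-3 library 3 against 45.2 and 19.5 in the other SQ-3 libraries. In LQ-40 libraries 1, 2 and 3 the sum was 55.1, 87.1 and 19.9, with library 2 the highest of all 12 libraries. The part of Cxcl13 and of mesothelial genes in the values of Marco, Timd4, Vsig4 and F13a1 was not tested.

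The rat libraries, 1 for each condition, gave no test. The 3D co-culture held 11910160 reads in genes and the 2D cells 13262387. Markers of the 3 labelled cell types were unevenly present. Of the macrophage genes, Cd14, Lyz2, Cd68, Spi1 and Cybb were measured, with the read counts or levels given below, while the C1q chains together had 3 reads in the 3D and 3 in the 2D library. Others were also low. Ptprc had 22 reads in 3D and 31 in 2D, Mrc1 22 in 3D and 21 in 2D, and Mertk 15 in 3D and 22 in 2D. Aif1 had 1 read in 3D and 8 in 2D, and Cd163 1 in 3D and 3 in 2D. The 6 cardiac muscle genes summed to 8.96 scaled FPKM in 3D and 9.55 in 2D. Tnnt2 had 96 reads in 3D and 107 in 2D and Myh6 had 111 in 3D and 159 in 2D, while Tnni3, Actc1 and Ryr2 had at most 10 and Myl2 had 0 in both. Fibroblast genes summed to 2624 in 3D and 2486 in 2D. Of the 32 matched members, 13 reached 1 scaled FPKM in either library and 19 did not. F13a1, Marco, Clec4n and Vsig4 had 0 reads in both libraries, which allows at most 0.0670, 0.162, 0.416 and 0.182 scaled FPKM in 3D and 0.0577, 0.139, 0.358 and 0.157 in 2D (3 reads, counting error only).

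Of the 13 measurable members 10 were higher and 3 lower in 3D, where 50.5% of 13405 genes were higher. The median log2 ratio was 0.40 over these members and 0.00 over all those genes. Beyond 1.5-fold on the log2(scaled FPKM + 1) scale, 2 were higher (9.39% of all genes) and 1 was lower (6.69% of all genes). Fcgr2b had 137 reads in 3D and 25 in 2D, a ratio of 6.36 after depth (exact 95% binomial interval 4.13 to 10.2), although its gene overlaps Fcgr3a on the other strand. Spi1 had 85 reads in 3D and 32 in 2D, a ratio of 3.08 (2.03 to 4.79). Lyz2 was lower, with 161 reads in 3D and 297 in 2D, a ratio of 0.63 (0.52 to 0.77). These intervals cover counting error only and say nothing about the spread between cultures.

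Axl and Gas6 had the highest levels of the members in the rat libraries. Axl stood at 184 scaled FPKM in 3D and 148 in 2D (ratio 1.24, interval 1.21 to 1.28), and Gas6 at 88.8 in 3D and 115.6 in 2D (ratio 0.77, interval 0.74 to 0.80), so receptor and ligand differed in direction. Fibroblasts also express both genes, and the part of fibroblasts in these levels was not tested. Cd14 stood at 24.3 in 3D and 16.6 in 2D (ratio 1.46, interval 1.28 to 1.68). Cybb (ratio 1.71, interval 1.28 to 2.30) and Adgre1 (1.94, interval 1.21 to 3.15) were the other measurable members whose interval lay above 1. The share of all genes with an interval that excludes 1 is not given here. Cd68 stood at 5.25 in 3D and 4.05 in 2D, and its interval and those of Fcer1g, Tyrobp, Ctss and Laptm5 included 1. Among members under 1 scaled FPKM, Msr1 had 34 reads in 3D and 11 in 2D (ratio 3.59, interval 1.78 to 7.85) and Clec7a 15 in 3D and 6 in 2D (2.90, interval 1.06 to 9.13). The 6 matched recruited-associated genes summed to 27.9 scaled FPKM in 3D and 18.8 in 2D, most of it Cd14, and the 7 matched resident-associated genes to 1.07 in 3D and 1.33 in 2D. In the rat libraries, Csf1 stood at 246.6 scaled FPKM in 3D and 88.4 in 2D (ratio 2.79, interval 2.70 to 2.89), while its receptor Csf1r stood at 2.43 in 3D and 3.84 in 2D (0.63, interval 0.50 to 0.80). Interferon response genes summed to 189.6 in 3D and 41.4 in 2D, and the part of this difference in the member values was not tested.

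**Figure D5:**
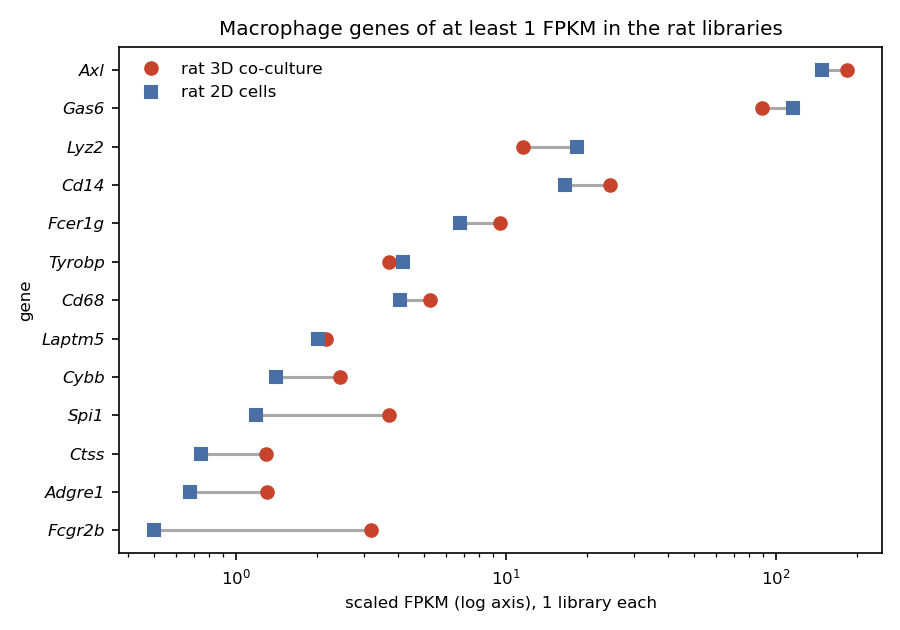
Scaled FPKM on a log axis of the 13 members that reached 1 scaled FPKM in either rat library, 3D co-culture as circles and 2D cells as squares, with 1 library each. Axl and Gas6 lie above 88 in both libraries, and Fcgr2b and Spi1 show the widest gaps, both higher in 3D.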

How the data were processed

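The authors deposited FPKM values (reads per kilobase of gene and sequencing depth) for 12 mouse and 2 rat libraries, with gene names, lengths and coordinates per the file headers. Per the submitters' processing notes the tools were fastp, HISAT2 2.0.5 and featureCounts 1.5.0-p3, and the builds mm10 and Rnor_6.0. The sources used here do not give the annotation release, the strand setting or the treatment of reads with several matches, and the labels' protocols describe both an unstranded and a stranded library. Members that overlap another gene (Gas6, Ctss, Mrc1, F13a1, Fcgr3, Ms4a6c, Mertk, Fcgr2b, Folr2 and Ptprc in mouse, Fcgr2b, Mrc1 and Mertk in rat) or have close copies (Lyz2, the Fc receptors, the MS4A genes) are therefore uncertain.

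FPKM times gene length was a whole multiple of 1 step for 100% of values (tolerance 0.02), which gave reads per gene. FPKM were divided by median-of-ratios factors over genes of at least 1 FPKM in every library (10422 mouse and 12109 rat genes). The 13000 mouse genes that reached 1 FPKM in 3 or more of 12 libraries entered the fit. It used limma 3.58.1 (R 4.3.3) with trend on the log2 of scaled FPKM plus a pseudocount of 1, over all 12 libraries (10.9 degrees of freedom), for 6 contrasts. All p are two-sided and were adjusted by Benjamini-Hochberg over every gene in the fit, with 0.05 as the threshold. The fit was also run on simulated counts with a fixed spread shared by all genes. That run does not show the error rate at the spread of these libraries. The rat libraries were compared without a test, over genes that reached 1 FPKM in one of them, with exact 95% binomial intervals on reads. Sequences are from RefSeq windows of build GRCm38.p6, and no column of values belonged to a sample outside the series.

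Members, lists and alternatives were chosen with earlier results of these data known, and the mesothelial list and Cxcl13 were added after their values were seen. Named genes were all 37 members, with values in every library for the 12 members of smallest p among those called in a comparison and for the resident-associated and recruited-associated genes, up to 4 called genes of other lists, and the 10 genes most like the members. Further per-library values, those of Clec10a, Fcgr1 and Marco included, and uncalled genes of other lists were chosen after their values were seen. The alternatives changed the scaling (unscaled FPKM, or quantile normalization), the pseudocount (0.1), the filter (none, or a mean of 5 scaled FPKM), the libraries fitted (the compared groups alone, or each library left out), the model (limma-voom on recovered reads) and the block (replicate number). Not every gene and count of the lists is reported here.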

Additional observations from a re-analysis of the deposited data

How the results depend on the processing

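The count of members called in Model against Sham, 19, stayed between 14 and 24 under every alternative, with 14 to 17 when single libraries were left out, and 12 of the 19 kept their call under all 13 or 14 alternatives run for each. Against Sham, the LQ-40 count of 13 was 3 with only the 2 groups compared and 3 to 22 when single libraries were left out. The SQ-3 count of 5 was 2 with quantile normalization, 0 with no filter, 11 with only the 2 groups compared and 0 in every case with a library left out. No member was called against Model, or between the compounds, under any alternative. Shares of all genes called under the alternatives are not given here, so whether the member counts moved more than those of other genes cannot be told. Uncalled members changed sign in Model against Sham when a library was left out: Cbr2 (0.015 without Model library 1 and 0.096 without Sham library 1, range -0.27 to 0.096), Lyve1 without Model library 2 (range -0.14 to 0.34), Vsig4 without Model library 2 (-0.19 to 0.88), Clec7a without Sham library 2 (-0.021 to 0.38) and Folr2 without Sham library 1 (-0.72 to 0.066). The resident minus recruited difference was -0.12 in Model and 1.06 in Sham hearts with means in place of medians. It was -0.15 in Model and 0.48 in SQ-3 hearts without Siglec1. The causes were not tested. Fits of edgeR and DESeq2 on the recovered reads were not run, since the deposited unit is FPKM, and limma-voom stands in for them.

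Libraries of the 4 groups share replicate numbers. Deviations from the group means had r from -0.27 to 0.22 (median -0.07) over the 18 same-numbered pairs, and from -0.39 to 0.39 over other pairs. Deviations within a group sum to 0 and the pairs are not independent, so a shared preparation cannot be judged from these r values. With a replicate block the counts were 16 in Model against Sham, 13 in LQ-40 against Sham and 1 in SQ-3 against Sham. Depth limits the low members: Timd4 and Vsig4 had as few as 14 reads in a library, and Marco as few as 0.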
